A study of Mus musculus with 68 samples.

Results

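The comparison described here sets ERY-V, the gate whose source label reads Retic, against ERY-IV, whose source label reads OrthoE, in mouse bone marrow. It uses replicates 4 to 7 of ERY-V and replicates 1 to 4 of ERY-IV, which is 8 of the 68 libraries of the series, and all genes of the table. The choice treats these as libraries of the same batch, the first ERY-IV library set beside the first of these ERY-V libraries and so on, though the labels state neither a batch nor a pairing. Both groups carry no treatment, genotype, strain or age in the labels, which give the tissue, the gate and a replicate number. The labels do not say whether a library came from 1 animal or a pool, so the p-values below measure only the spread between these libraries, which may be technical. Libraries of both groups came from total RNA, with a strand-preserving kit made for small amounts of it.

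Orthochromatic erythroblasts are the last nucleated cells of the red lineage. They have left the cell cycle, their chromatin is condensed, and they expel the nucleus to become reticulocytes, which have no nucleus and therefore no transcription. A reticulocyte lives on the mRNA it has inherited: it goes on making haemoglobin while it removes mitochondria by mitophagy, removes ribosomes and other proteins through ubiquitin and the proteasome, and reshapes its membrane around its skeleton.

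Total counts ran from 3417326 to 5950103 in ERY-IV and from 1988166 to 6132158 in ERY-V. In ERY-IV 10556 to 13059 genes had a count, and in ERY-V 6615 to 13898. All 9 defining erythroid markers, such as Alas2 and Slc4a1, had counts in each of the 8 libraries. Globin genes took 21.9 to 43.6% of the counts in ERY-IV and 38.1 to 58.9% in ERY-V. The libraries did not fall into 2 tight groups. Within ERY-IV the counts of replicates 1 and 2 differed by a chi-square of 12.1 per degree of freedom and those of replicates 3 and 4 by 15.9, against 86.6 to 91.6 for the other pairs, where sampling noise alone gives a value near 1. Among the ERY-V libraries used, replicate 5 stood apart in summed neutrophil markers (S100a8, Ngp and others). They were 3436 CPM (counts per 1000000 of the library total) there, against 1.51 to 117 CPM in replicates 4, 6 and 7. ERY-IV replicate 2 had 185 CPM. ERY-V replicates 1 to 3, outside the comparison, had 2759 to 2774 CPM. All 9 neutrophil markers had counts in replicate 5 and 7 were at 0 in replicate 7. Summed macrophage markers ran from 5.27 to 147 CPM in ERY-IV and from 1.01 to 429 CPM in ERY-V. Where leaving out a library moved the count of a list by over 1.5 times, the count without it is given beside that list.

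Of 6175 genes tested with edgeR's quasi-likelihood test, 311 (5.04%) were higher and 95 (1.54%) were lower in ERY-V at a Benjamini-Hochberg adjusted p below 0.05, with the trimmed mean (TMM) scaling that sets the bulk of genes level. The scale changed the directions. TMM put the median log2 fold change of all genes at -0.082, and the library totals put it at -1.42, a shift of -1.34. The TMM factors, which multiply the library totals, ran from 1.24 to 2.18 in ERY-IV and from 0.392 to 1.10 in ERY-V. They were uneven within ERY-V, where replicate 6 had the lowest and replicate 5 the highest. On library totals 38 genes (0.615%) were higher and 1275 (20.6%) lower. With the position block, a term for each pair of libraries in the same place of both groups, 618 (10%) were higher and 402 (6.51%) lower with TMM, and 65 (1.05%) and 3207 (51.9%) with library totals. The block with library totals was added after the data had been seen. DESeq2 called 583 (9.44%) higher and 242 (3.92%) lower. Single libraries moved the edgeR counts with TMM by over 1.5 times. They were 114 and 29 (higher and lower) without ERY-IV replicate 1, 118 and 36 without ERY-IV replicate 2, 149 and 30 without ERY-IV replicate 4, 127 and 35 without ERY-V replicate 4, 481 and 248 without ERY-V replicate 5, 143 and 37 without ERY-V replicate 6 and 338 and 146 without ERY-V replicate 7. Of the 311 genes called higher with TMM, 86 had a lower share of the library total in ERY-V. The genes called in the same direction on both scales were 37 higher (0.599% of genes tested) and 95 lower (1.54%), and they lead the account below. That rule was set after the data had been seen. It removed none of the 95 genes called lower with TMM, because library totals move fold changes down. Of the 38 genes higher on library totals 37 were higher with TMM as well. A call on both scales is therefore no separate support. In bulk samples fewer cells of a type and less RNA per cell cannot be told apart. Neither scale measures the amount of an RNA per cell. Below, rose, higher, fell and lower mean a change relative to the other RNA of the libraries.

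**Figure D1:**
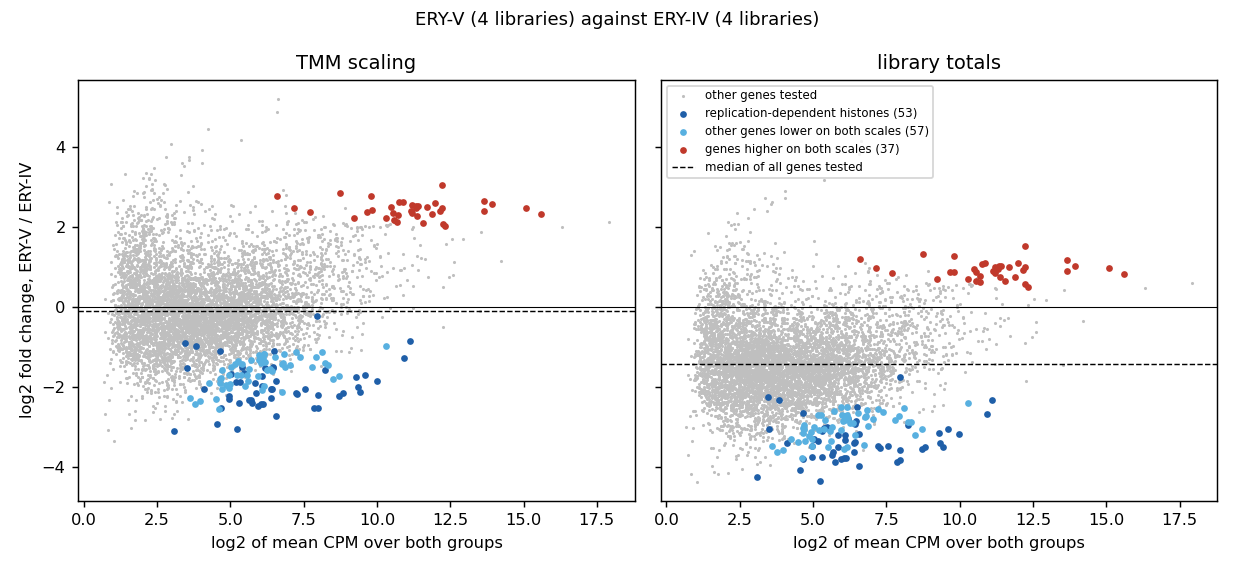
Log2 fold change of each gene tested, ERY-V over ERY-IV, against the log2 of its mean CPM over both groups, with TMM scaling (left) and with library totals (right). The 37 genes in red lie above 0 in both panels and are mostly abundant, the histone genes in dark blue lie below 0 in both, and the dashed median moves from -0.082 to -1.42.

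All 37 genes that were higher on both scales were also called higher with the position block and with DESeq2. In 34 of them CPM was higher in every ERY-V library than in any ERY-IV library (0.988% of all genes tested did), from which nothing is read, since calls on the same libraries chose the set. With TMM 35 kept their TMM call whichever library was left out, the exceptions being the alpha globins Hba-a1 and Hba-a2. With TMM their log2 fold changes ran from 2.03 to 3.07, and with library totals from 0.52 to 1.55. Bpgm, the enzyme that makes the haemoglobin ligand bisphosphoglycerate in red cells, lies at chr6:34476356-34505136 (GRCm38.p6) and had the largest difference of these. It was measured at 2007, 3112, 2388 and 2281 CPM in ERY-IV and 9179.7, 8867, 5392 and 5159 CPM in ERY-V. Every ERY-V library was above every ERY-IV library, although replicates 4 and 5 were well above replicates 6 and 7. The log2 fold change was 3.07 ± 0.43 (SE) with TMM (adjusted p = 0.00471) and 1.55 ± 0.23 with library totals (adjusted p = 0.00865). Of the glycolysis and red cell energy list 2 of 15 tested genes were higher with TMM, against 5.04% of all genes. The other was Taldo1 of the pentose phosphate path, at 1.66 with TMM and 0.15 with library totals. The count was 1 without ERY-IV replicates 1 or 2 or ERY-V replicate 6.

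**Figure D2:**
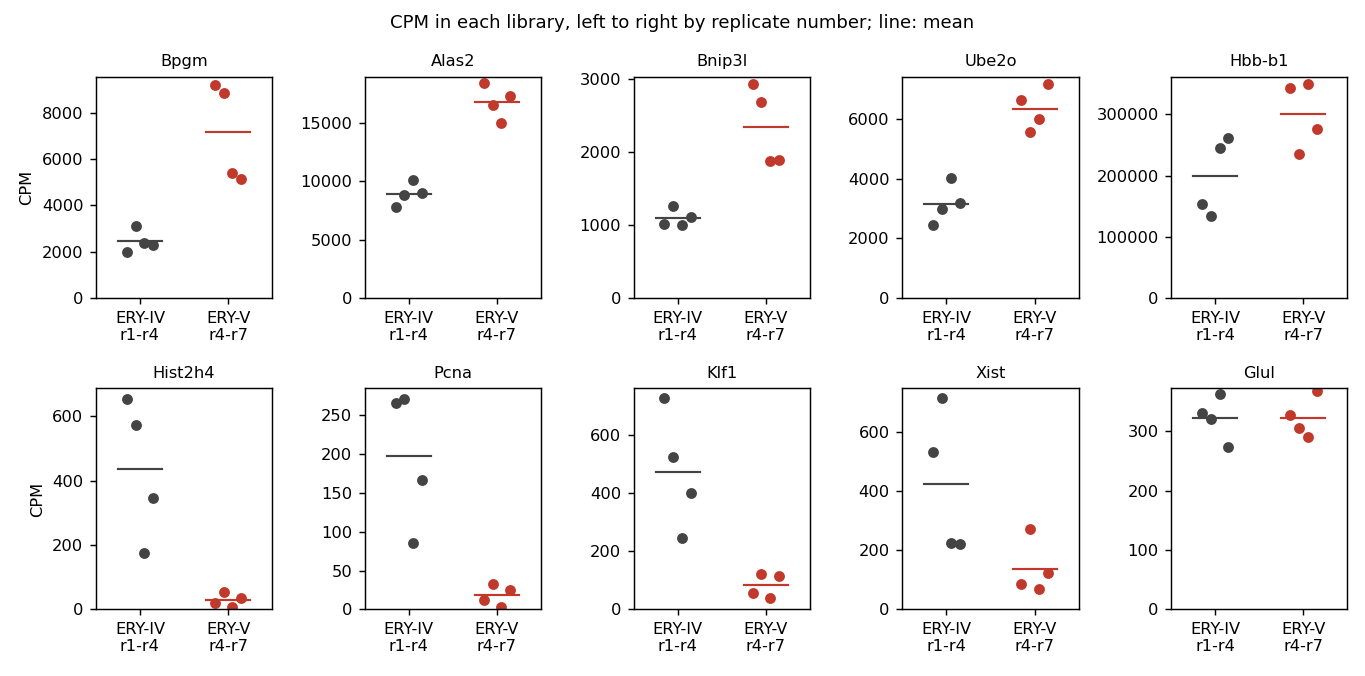
CPM of 10 genes in each ERY-IV library (replicates 1 to 4, grey) and ERY-V library (replicates 4 to 7, red), left to right by replicate number, with a line at each mean. Bpgm, Alas2, Bnip3l and Ube2o do not overlap and are higher in ERY-V, Hist2h4, Pcna and Klf1 do not overlap and are lower, and Hbb-b1, Xist and Glul overlap.

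Of the haem synthesis list the first and the last enzyme rose. Alas2, the erythroid first enzyme of the pathway, was measured at 7740.2, 8818, 10102 and 8966 CPM in ERY-IV and 18347, 16496, 14940.2 and 17225 CPM in ERY-V, with no overlap. The log2 fold change was 2.42 ± 0.46 (SE) with TMM (adjusted p = 0.00764) and 0.91 ± 0.13 with library totals (adjusted p = 0.00718). Fech, which inserts the iron into the ring in the last step, rose as well. It ran from 3465 to 4106 CPM in ERY-IV and 5093 to 6366 CPM in ERY-V, and its log2 fold change was 2.09 ± 0.41 (SE) with TMM (adjusted p = 0.0084) and 0.58 ± 0.15 with library totals (adjusted p = 0.0265). Of 15 tested genes of the haem synthesis list 3 were higher and 0 lower with TMM, and 2 higher and 8 lower with library totals, the list median being 0.26 with TMM and -1.24 with library totals. The remaining gene called was Slc25a37, mitoferrin, which brings iron into the mitochondrion (1.59 and 0.066 with TMM and with library totals, not past the threshold on the latter). The TMM count was 5 without ERY-V replicate 5 for higher members, and 1 without ERY-V replicate 7 for lower ones. With the position block 5 were higher and 3 lower. Among all genes tested 5.04% were higher and 1.54% lower with TMM, and 0.615% and 20.6% with library totals. The block gave 10% and 6.51%. Slc25a39, a mitochondrial carrier that imports glutathione, rose by 2.35 ± 0.46 (SE) with TMM (adjusted p = 0.00821) and 0.88 ± 0.23 with library totals (adjusted p = 0.0273), and Isca1, an assembly factor for iron-sulfur clusters, by 2.23 ± 0.37 (SE) with TMM (adjusted p = 0.00573) and 0.71 ± 0.23 with library totals (adjusted p = 0.0462). In the iron handling list 5 of 20 were higher with TMM and 0 lower; the higher ones were 3 without ERY-IV replicates 1 or 2 or ERY-V replicates 4 or 6, and the lower ones 1 without ERY-V replicate 5. Iscu, the iron-sulfur scaffold, ran from 68.4 to 106 CPM in ERY-IV and 130.3 to 196 CPM in ERY-V. Ncoa4, the ferritin receptor of autophagy, ran from 155 to 261 CPM in ERY-IV and 223 to 385 CPM in ERY-V. Their log2 fold changes with TMM and with library totals were 2.37 and 0.88, and 1.96 and 0.53. Neither passed the threshold on library totals (adjusted p = 0.0703 and 0.17). With the block and library totals Iscu passed (adjusted p = 0.0259) and Ncoa4 did not (adjusted p = 0.0962). Ftl1, the ferritin light chain, was measured at 747, 705, 1334 and 1371 CPM in ERY-IV and 1075, 763, 1692 and 2689 CPM in ERY-V, and its TMM call (log2 fold change 2.04, adjusted p = 0.0391) ended without any 1 of ERY-IV replicates 1, 2 or 4 or ERY-V replicates 4, 6 or 7 (adjusted p up to 0.143). Fth1, the heavy chain, had 1860.2 to 2814 CPM in ERY-IV and 1006 to 2421 CPM in ERY-V and was not called (TMM 0.98, library totals -0.54, adjusted p = 0.227 and 0.132), and with the position block it passed as higher with TMM (adjusted p = 0.0217) and as lower with library totals (-0.61, adjusted p = 0.0115).

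The Alas2 promoter is printed because this gene was among the most abundant that rose and its promoter holds a GATA motif. Those of Bpgm, Gabarapl2 and Isca1, also read, hold none. The window read for Slc25a39 (chr11:102407468-102407767, minus strand) holds none either. It lies inside the gene as positioned here (chr11:102402969-102408675), so it does not cover the bases before that gene start. The capitals mark the GATA motif, the site of the erythroid factors of that name, searched on both strands as the letters GATA with A or T before them and A or G after them. The Alas2 sequence is RefSeq sequence of GRCm38.p6, chrX:150547167-150547466, plus strand, 250 bases before to 50 after the start of the gene.
Alas2: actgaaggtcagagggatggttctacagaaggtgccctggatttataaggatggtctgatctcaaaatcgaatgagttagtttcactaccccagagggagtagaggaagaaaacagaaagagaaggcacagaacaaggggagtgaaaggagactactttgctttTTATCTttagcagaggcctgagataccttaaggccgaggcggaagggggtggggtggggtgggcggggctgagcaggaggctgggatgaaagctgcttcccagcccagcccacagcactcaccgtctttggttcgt
The motif begins 86 bases before the start of the gene. Of the 37 genes that rose on both scales 31 had a promoter in the table, and 9 of these (29%) held the motif, against 29.4% of 85 promoters of genes that fell, 21.3% of those of all genes tested and 29.8% of all promoters in the table. No match says only that these letters are not in the window.

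Globin genes, the most abundant mRNAs, were uneven in their statistics. Hba-a1, an alpha globin, was measured at 25486, 25922, 44014 and 46837 CPM in ERY-IV and 61471, 41552, 70659 and 81144 CPM in ERY-V. ERY-V replicate 5 fell inside the ERY-IV range. The log2 fold change was 2.34 ± 0.62 (SE) with TMM (adjusted p = 0.0377) and 0.84 ± 0.23 with library totals (adjusted p = 0.03), and the TMM call ended without any 1 of ERY-IV replicates 1, 2, 3 or 4 or ERY-V replicates 4, 6 or 7 (adjusted p up to 0.133). Hba-a2, its near-identical copy, whose reads counting can split or drop, had 16029.6 to 30662 CPM in ERY-IV and 30583 to 58676 CPM in ERY-V. The log2 fold change was 2.49 ± 0.61 (SE) with TMM (adjusted p = 0.0262) and 0.99 ± 0.24 with library totals (adjusted p = 0.0236), and the TMM call ended without any 1 of ERY-IV replicates 1, 2 or 4 or ERY-V replicates 4, 6 or 7 (adjusted p up to 0.097). Hbb-b1, a beta globin, was measured at 154180.0, 134246, 244474 and 261657 CPM in ERY-IV and 342720.0, 235725, 350208 and 276081 CPM in ERY-V, with overlapping groups. It missed the threshold with TMM (log2 fold change 2.13, adjusted p = 0.101), and passed with library totals (0.60, adjusted p = 0.0459) and with the position block (adjusted p = 0.0187). Over the globin list 4 of 6 tested genes were higher with TMM, where 5.04% of all genes were. With the position block 6 were (10% of all genes), and with library totals 3 (0.615%). The others called with TMM were the theta globins Hbq1a and Hbq1b (2.45 and 0.75, and 1.41 and -0.034, with TMM and with library totals). The TMM count of the list was 0 without ERY-IV replicate 1 or ERY-V replicate 4, and 1 without ERY-IV replicates 2 or 4 or ERY-V replicates 6 or 7, and it was 6 without ERY-V replicate 5.

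Epb4.1 and Mpp1 were the membrane genes that rose on both scales. Epb4.1, protein 4.1 that ties the skeleton to the membrane, was measured at 7026, 9166, 7943 and 7722 CPM in ERY-IV and 20500.3, 22952, 12837 and 15766 CPM in ERY-V, with no overlap. It rose by 2.65 ± 0.43 (SE) with TMM (adjusted p = 0.00573) and 1.18 ± 0.18 with library totals (adjusted p = 0.00921). Mpp1, the palmitoylated partner of protein 4.1, ran from 841 to 1110.1 CPM in ERY-IV and 1474 to 1757 CPM in ERY-V and rose by 2.23 ± 0.41 (SE) with TMM (adjusted p = 0.0063) and 0.71 ± 0.19 with library totals (adjusted p = 0.03). Slc4a1, band 3, the anion exchanger and anchor of the skeleton, was measured at 20884, 20693, 24429 and 19472 CPM in ERY-IV and 13857, 16490.4, 17980.3 and 19004 CPM in ERY-V. Each ERY-V library was below each ERY-IV library in CPM. Slc4a1 was not called with TMM (log2 fold change 1.17, adjusted p = 0.144), and the sign turned with library totals (-0.34, adjusted p = 0.0694). It passed as higher with the position block and TMM (adjusted p = 0.0305) and as lower with the block and library totals (adjusted p = 0.0398). Over the membrane list 5 of 34 tested genes were higher and 0 lower with TMM (10 and 1 with the block). Library totals gave 2 and 20. The shares of all genes were 5.04% and 1.54% with TMM, 10% and 6.51% with the block, and 0.615% and 20.6% with library totals. Tpm1, tropomyosin, was called higher with TMM, and its sign turned with library totals (1.47 and -0.015), where it was not called. The higher members with TMM were 2 without ERY-IV replicates 1, 2 or 4 or ERY-V replicates 4 or 6, 3 without ERY-IV replicate 3 or ERY-V replicate 7, and 10 without ERY-V replicate 5. Tfrc, the transferrin receptor that reticulocytes shed, was measured at 3626, 3217, 3513 and 3468 CPM in ERY-IV and 585, 1590.1, 1209.8 and 1807 CPM in ERY-V. Its CPM did not overlap and it fell on library totals (log2 fold change -1.41, adjusted p = 0.0167), close to the median of all genes. It was not called with TMM (-0.014, adjusted p = 0.99), where the sign turned under several alternatives.

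In the mitophagy and autophagy list 13 of 32 tested genes were higher and 0 lower with TMM. With library totals 2 were higher and 4 lower. Over all genes these shares were 5.04% and 1.54% with TMM, and 0.615% and 20.6% with library totals. Bnip3l, the mitochondrial receptor (Nix) needed to clear mitochondria from reticulocytes, lies at chr14:66985238-67008877 and was measured at 1020.1, 1261, 1003 and 1111 CPM in ERY-IV and 2934, 2692, 1874 and 1889 CPM in ERY-V. The groups did not overlap, and it rose by 2.63 ± 0.39 (SE) with TMM (adjusted p = 0.00471) and 1.1 ± 0.21 with library totals (adjusted p = 0.0149). Gabarapl2, an Atg8-like protein of the autophagosome to which such receptors bind, was measured at 69.9, 89.5, 112 and 114 CPM in ERY-IV and 176, 161, 209 and 213 CPM in ERY-V, again with no overlap. It rose by 2.48 ± 0.44 (SE) with TMM (adjusted p = 0.00573) and 0.98 ± 0.32 with library totals (adjusted p = 0.0465). Others called with TMM were Pink1, a kinase that marks damaged mitochondria, Becn1 of the initiation complex and Atg12 of the conjugation system. The list median was 0.90 with TMM and -0.54 with library totals, below 0 on the second scale though above the median of all genes on both. For Pink1, Becn1 and Atg12 the log2 fold changes with TMM and with library totals were 2.27 and 0.81, 2.2 and 0.69, and 2.01 and 0.52. Their library-total adjusted p values were 0.0864, 0.102 and 0.244. With the block and library totals these were 0.0198, 0.0561 and 0.232, so only Pink1 passed. The TMM count of higher genes was 5 without ERY-IV replicates 1 or 2 or ERY-V replicate 4, and 7 without ERY-IV replicate 4 or ERY-V replicate 6, and that of lower genes 1 without ERY-V replicate 5.

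Among ubiquitin enzymes of late erythroid cells 20 of 48 tested were higher and 0 lower with TMM, and 3 and 8 with library totals. Library totals called 0.615% of all genes higher and 20.6% lower. The list's higher members with TMM were 13 without ERY-IV replicates 1, 2 or 4 or ERY-V replicate 4. Its lower ones were 1 without ERY-V replicate 5. The list median was 1.0 with TMM and -0.54 with library totals. Ube2o, the ubiquitin-conjugating enzyme that targets ribosomal proteins in reticulocytes, was measured at 2456, 3003, 4019.9 and 3206 CPM in ERY-IV and 6649, 5572, 5999 and 7181 CPM in ERY-V, and did not overlap. It rose by 2.5 ± 0.46 (SE) with TMM (adjusted p = 0.0063) and 1.0 ± 0.18 with library totals (adjusted p = 0.0115). Rnf10, a ubiquitin ligase of ribosomal proteins, had 1828 to 2545 CPM in ERY-IV and 3982 to 4802 CPM in ERY-V and rose by 2.52 ± 0.42 (SE) with TMM (adjusted p = 0.00573) and 1.02 ± 0.17 with library totals (adjusted p = 0.00921). Ube2l6, a conjugating enzyme for ubiquitin and ISG15, had 1364 to 1948 CPM in ERY-IV and 2733 to 3251 CPM in ERY-V and rose by 2.35 ± 0.41 (SE) with TMM (adjusted p = 0.00573) and 0.87 ± 0.18 with library totals (adjusted p = 0.0169). Rnf11, a small RING protein, had log2 fold changes of 2.1 and 0.60 with TMM and with library totals, the latter not past the threshold (adjusted p = 0.104). In the proteasome list 4 of 41 tested subunit and activator genes were higher and 0 lower with TMM, and 1 and 12 with library totals, with a median of -0.25 with TMM and -1.57 with library totals. With TMM 5.04% of all genes were higher and 1.54% lower, and the list's higher members were 2 without ERY-IV replicate 2, its lower ones 2 without ERY-V replicate 5. Psme3, the activator PA28 gamma, rose on both scales (TMM 2.19, library totals 0.66), and Psmd4, a ubiquitin receptor of the regulatory particle, with TMM only (2.21; library totals 0.72, adjusted p = 0.114).

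Pabpc1 and Eif5 were the translation factors that rose. Pabpc1, the poly(A)-binding protein that holds mRNA in translation, was measured at 8497, 10595, 12162 and 9654 CPM in ERY-IV and 23778, 20434, 20829.6 and 19485 CPM in ERY-V, with no overlap. It rose by 2.58 ± 0.49 (SE) with TMM (adjusted p = 0.00761) and 1.05 ± 0.14 with library totals (adjusted p = 0.00653). Eif5, which releases the initiator factors at the start codon, was measured at 1312, 1481, 1724 and 1719.7 CPM in ERY-IV and 2787, 2826, 3675 and 3377 CPM in ERY-V, with no overlap. It rose by 2.55 ± 0.44 (SE) with TMM (adjusted p = 0.00573) and 1.02 ± 0.18 with library totals (adjusted p = 0.0115). These were the 2 called of 57 tested initiation and elongation genes with TMM, with 9 higher and 2 lower under the position block, and 2 higher and 14 lower with library totals. Over all genes 5.04% were higher with TMM, 10% higher and 6.51% lower with the block, and 0.615% higher and 20.6% lower with library totals. The list's higher members were 6 without ERY-V replicate 5, and its lower ones 1 without ERY-V replicate 5. Of 75 tested cytosolic ribosomal protein genes 0 were called by edgeR with TMM, and DESeq2 called 0 higher and 0 lower. With the position block and TMM 8 were higher, and with library totals 6 were lower. With the block and library totals 48 were lower, where 51.9% of all genes were. Other abundant genes that rose on both scales were of several kinds. Cat, catalase, which removes hydrogen peroxide, had 1415 to 1767 CPM in ERY-IV and 2527 to 3402 CPM in ERY-V. Bcl2l1, the survival factor Bcl-xL of late erythroblasts, had 1031 to 1645 CPM in ERY-IV and 1957 to 2067 CPM in ERY-V. Rsad2, the interferon-induced viperin, had 2594 to 3421 CPM in ERY-IV and 4014 to 5457 CPM in ERY-V. Their log2 fold changes with TMM and with library totals were 2.42 and 0.92, 2.13 and 0.64, and 2.34 and 0.76, in that order. Further genes of this set, all among the largest fold changes, were Fam46c, a poly(A) polymerase, Calcrl, the receptor of adrenomedullin and calcitonin gene-related peptide, and Fam220a, Fam213a and Ccndbp1. They had log2 fold changes of 2.6 and 1.11, 2.78 and 1.2, 2.8 and 1.28, 2.63 and 1.12, and 2.86 and 1.33, with TMM and with library totals. Mkrn1, Ucp2 and Mff, named after their values were seen, had 2.41 and 0.93, 2.03 and 0.52, and 2.4 and 0.85, on the same scales. Ucp2 encodes a mitochondrial carrier and Mff a receptor of mitochondrial fission.

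Ptpn14, a phosphatase, had the largest log2 fold change of any gene that met the naming rule, 4.09 ± 0.80 (SE) with TMM (adjusted p = 0.00821) and 2.46 ± 0.88 with library totals (adjusted p = 0.0586, and 0.0277 with the block), but its TMM call ended without ERY-V replicate 4 (adjusted p up to 0.0523) and its levels were low, at 0.672, 4.1, 0.753 and 4.18 CPM in ERY-IV and 25, 13.7, 8.76 and 5.53 CPM in ERY-V. Rcn1, an endoplasmic reticulum calcium-binding protein, was likewise low, at 3.03, 2.63, 3.52 and 2.32 CPM in ERY-IV and 5.5, 5.71, 12.8 and 4.02 CPM in ERY-V, and its call (TMM 2.94, adjusted p = 0.0282; library totals 1.28, adjusted p = 0.19) ended without any 1 of ERY-IV replicates 1, 2, 3 or 4 or ERY-V replicates 4 or 6 (adjusted p up to 0.129). The interferon response list had 5 of 16 tested genes higher with TMM (5.04% of all genes) and 1 with library totals (0.615%), namely Rsad2. The TMM count was 1 without ERY-IV replicate 1 or ERY-V replicate 4, and 2 without ERY-IV replicates 2 or 4 or ERY-V replicate 6. In ERY-IV the level of Rsad2 was highest in replicate 3.

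Replication-dependent histone genes, which encode the core and linker histones needed when DNA is copied, were lower. Of 53 tested 38 were lower and 0 higher with TMM, 51 lower with library totals and 49 lower with the position block. The shares of all genes called lower were 1.54%, 20.6% and 6.51% in these settings. The list median was -2.04 with TMM and -3.39 with library totals. In CPM 52 of the 53 lay lower in every ERY-V library than in any ERY-IV library, against 35.3% of all genes tested. The TMM count was 22 without ERY-V replicate 4, and 24 without ERY-IV replicates 1 or 4, and it was 33 without ERY-V replicate 5. The summed CPM of the list was 29902, 26573, 12238 and 19369 in ERY-IV and 1632, 3916, 1477 and 4358 in ERY-V. Replicate 7 was the highest ERY-V library and still below the lowest ERY-IV library. Near-identical copies share reads in this family, so single genes of it are less certain than the sum.

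Replication-dependent histone mRNAs end in a stem-loop in place of a poly(A) tail, and the protein Slbp binds it. The ends of 6 members are printed because this feature sets them apart from other mRNAs. The capitals mark the stem-loop, found as GG, any 3 bases, TTNTNA, any 3 bases and CC in the last 200 bases of gencode vM21 transcripts (GRCm38), and each position is that of the printed bases.
Hist1h2ag (chr13:22042479-22042502, minus strand): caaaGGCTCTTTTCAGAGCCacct
Hist1h4f (chr13:23551287-23551310, minus strand): caaaGGCCCTTTTCAGGGCCaccc
Hist2h2ac (chr3:96220414-96220437, minus strand): aaaaGGCTCTTTTTAGAGCCacca
Hist1h2bb (chr13:23747199-23747222, plus strand): caaaGGCTCTTTTAAGAGCCaccc
Hist1h3g (chr13:23535885-23535908, plus strand): taaaGGCTCTTCTTAGAGCCaccc
Hist1h4b (chr13:23757362-23757385, plus strand): aaaaGGTCCTTTTCAGGACCactc
All 6 lie in an annotated UTR, which is exonic. The pattern was found in 21 of 53 tested histone genes (39.6%) and in 84 of 5887 other tested genes with a transcript (1.43%), and no match says only that these letters are not in the annotated end. The log2 fold changes with TMM of the genes shown were -3.05 for Hist1h2ag, -2.7 for Hist1h4f, -2.15 for Hist2h2ac, -2.05 for Hist1h2bb, -1.87 for Hist1h3g and -1.63 for Hist1h4b, of which Hist1h3g and Hist1h4b missed the threshold (adjusted p = 0.18 and 0.0775). The set was chosen for its different stem-loops. Of the 38 histone genes of the list that were lower on both scales 33 lie on chromosome 13. The median of their longest transcripts was 522 bases against 3599 over all genes tested and 3302 for the other genes that fell. Hist3h2a and Hist3h2ba were also lower on both scales but lay outside the list. They count among the other genes here and in the stem-loop shares.

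The histone genes named next fell by more than the list median of -2.04 with TMM, so they do not give its typical size. Hist2h4, an H4 gene, was measured at 653, 571, 175 and 345 CPM in ERY-IV and 20.6, 54.3, 6.74 and 36.7 CPM in ERY-V, and Hist1h2ag, an H2A gene, at 104, 95.4, 27.6 and 58 CPM in ERY-IV and 3.21, 8.81, 0 and 1.01 CPM in ERY-V. Neither overlapped. Their log2 fold changes were -2.52 ± 0.38 (SE) with TMM (adjusted p = 0.00471) and -3.88 ± 0.61 with library totals (adjusted p = 0.00921) for Hist2h4 and -3.05 ± 0.63 (SE) with TMM (adjusted p = 0.0108) and -4.34 ± 0.90 with library totals (adjusted p = 0.0181) for Hist1h2ag. Hist1h4j and Hist1h4f, both H4 genes, had -2.91 and -4.08, and -2.7 and -3.96, with TMM and with library totals, and Hist1h4d, named after its values were seen, had -2.22 and -3.55. The calls of these 5 genes held whichever library was left out. Of the 12 lowest fold changes that met the naming rule 10 were histone genes, with Hist1h3h the lowest (-3.1 and -4.25, adjusted p = 0.0452 with TMM). Its levels in ERY-V were low, at 2.61 CPM in replicate 5 and at most 0.229 CPM in replicates 4, 6 and 7. Its call ended without any 1 of ERY-IV replicates 1, 2, 3 or 4 or ERY-V replicates 4, 6 or 7 (adjusted p up to 0.156). The other two were Usp39, a splicing factor, and Cenpi, a centromere protein. Usp39 had -2.53 and -3.76 and its TMM call ended without any 1 of ERY-IV replicates 1, 2, 3 or 4 or ERY-V replicates 4 or 6 (adjusted p up to 0.144). Cenpi had -2.41 and -3.61 and its TMM call ended without any 1 of ERY-IV replicates 1, 2 or 4 or ERY-V replicates 4 or 6 (adjusted p up to 0.155).

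Part of the DNA replication list was lower. With TMM 10 of 36 tested were lower and 0 higher, with the position block 20 and with library totals 29. Of all genes 1.54%, 6.51% and 20.6% were lower in these settings. The list median was -1.14 with TMM and -2.58 with library totals. The TMM count was 2 without ERY-IV replicates 1 or 4 or ERY-V replicate 4, 3 without ERY-IV replicate 2, 4 without ERY-V replicate 6, and 17 without ERY-V replicate 7. Pcna, the sliding clamp of the replication fork, was measured at 266, 271, 85.9 and 167 CPM in ERY-IV and 12.4, 32.9, 3.03 and 24.6 CPM in ERY-V, with no overlap. It had a log2 fold change of -2.1 ± 0.41 (SE) with TMM (adjusted p = 0.00821) and -3.43 ± 0.65 with library totals (adjusted p = 0.0137). Mcm5, a subunit of the replicative helicase, was measured at 170.4, 189, 77.3 and 105 CPM in ERY-IV and 14.4, 37.3, 6.4 and 13.6 CPM in ERY-V and had a log2 fold change of -1.56 ± 0.33 (SE) with TMM (adjusted p = 0.0121) and -2.9 ± 0.56 with library totals (adjusted p = 0.0149). Asf1b, a chaperone that hands histones to new DNA, named after its values were seen, had 27.1 to 124 CPM in ERY-IV and 5.53 to 12.1 CPM in ERY-V and had a log2 fold change of -1.96 ± 0.40 (SE) with TMM (adjusted p = 0.00993) and -3.5 ± 0.59 with library totals (adjusted p = 0.0101). These 3 calls held whichever library was left out. Slbp, also named after its values were seen, had 98.2 to 310.1 CPM in ERY-IV and 8.42 to 43.7 CPM in ERY-V and log2 fold changes of -1.48 and -2.96, and its TMM call ended without any 1 of ERY-IV replicates 1, 2 or 4 or ERY-V replicate 6 (adjusted p up to 0.0878).

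Of 39 tested mitosis genes 3 were lower and 4 higher with TMM, 18 and 4 with the position block, and 29 and 0 with library totals. Over all genes 1.54% were lower and 5.04% higher with TMM, 6.51% and 10% with the block, and 20.6% and 0.615% with library totals. The lower members of the list with TMM were 0 without ERY-IV replicates 1, 2 or 4 or ERY-V replicates 4 or 6, 1 without ERY-V replicate 7, 6 without ERY-V replicate 5, and 9 without ERY-IV replicate 3. Among those higher were Pttg1 (securin), at 51.9, 49.5, 84.4 and 58.3 CPM in ERY-IV and 102, 79.1, 137 and 126 CPM in ERY-V, Nusap1, a spindle protein, and Cdc25b, a phosphatase that starts mitosis. Their log2 fold changes with TMM and with library totals were 2.4 and 0.86, 2.04 and 0.44, and 1.99 and 0.41. None passed on library totals (adjusted p = 0.0918, 0.189 and 0.178). Of these Pttg1 passed with the block and library totals (adjusted p = 0.0393). Cdk1, the kinase that drives entry into mitosis, was measured at 190.1, 199, 30.1 and 75.7 CPM in ERY-IV and 12.1, 20.9, 1.01 and 7.54 CPM in ERY-V and had -2.08 and -3.54, and its TMM call ended without any 1 of ERY-IV replicates 1, 2 or 4 or ERY-V replicates 4, 6 or 7 (adjusted p up to 0.121). The division markers Mki67 and Top2a were not called with TMM (adjusted p = 0.56 and 0.0689), and both passed on library totals (log2 fold change -1.85 and -2.59, adjusted p = 0.0497 and 0.0169). Top2a also passed with the position block (adjusted p = 0.00045), as did Lmnb1, a nuclear lamina protein (adjusted p = 0.00286; without the block 0.134).

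Erythroid regulators were mostly not called with TMM. Klf1, a master factor of erythroid genes and beta globin, was measured at 724, 523, 246 and 399 CPM in ERY-IV and 55.2, 121, 37.7 and 115 CPM in ERY-V, with no overlap. Its log2 fold change was -1.11 ± 0.29 (SE) with TMM (adjusted p = 0.0366) and -2.52 ± 0.45 with library totals (adjusted p = 0.0115), and the TMM call ended without any 1 of ERY-IV replicates 1, 2 or 4 or ERY-V replicates 4 or 6 (adjusted p up to 0.129). Gata1, the erythroid GATA factor, was measured at 184, 165, 94.4 and 127 CPM in ERY-IV and 42.4, 46.3, 29.3 and 44.3 CPM in ERY-V, with no overlap, and had a log2 fold change of -0.27 with TMM (adjusted p = 0.679) and -1.81 with library totals (adjusted p = 0.0176). Foxo3, which drives late maturation genes, had 554 to 673 CPM in ERY-IV and 261 to 508 CPM in ERY-V, and Epor, the erythropoietin receptor, 66 to 133 CPM in ERY-IV and 8.76 to 63.4 CPM in ERY-V. Neither was called with TMM (adjusted p = 0.144 and 0.755), and the sign of Foxo3 turned with library totals (0.78 and -0.65). With the block Foxo3 passed as higher with TMM (adjusted p = 0.0136) and as lower with library totals (adjusted p = 0.0226), and Epor as lower with library totals (adjusted p = 0.000341). Trim58 and Xpo7, which act in nuclear loss, had 0.50 and -0.88, and 0.80 and -0.61, with TMM and with library totals and were not called on either scale (adjusted p = 0.365 and 0.0609 for Trim58, 0.29 and 0.0638 for Xpo7). With the block and library totals both were called lower (-0.93, adjusted p = 0.00479, and -0.64, adjusted p = 0.00274). Tspo2, a cholesterol-binding protein of erythroid cells, had 0.99 and -0.47, was not called on either scale (adjusted p = 0.105 and 0.178) and passed as higher with the position block and TMM (adjusted p = 0.00156; 0.129 with the block and library totals). Over the list of erythroid transcription factors 2 of 22 were higher and 1 lower with TMM, 3 and 5 with the block, and 12 were lower with library totals. Lmo2, a partner of the erythroid GATA complex, and E2f2, a cell cycle factor, were higher with TMM only, and their sign turned with library totals (1.2 and -0.36, and 1.35 and -0.10). The higher members were 0 without ERY-IV replicates 1, 2 or 4 or ERY-V replicates 4 or 6, and 1 without ERY-IV replicate 3, and the lower ones 0 without ERY-IV replicates 1, 2 or 4 or ERY-V replicate 6. With all 8 libraries 5.04% of all genes were higher and 1.54% lower with TMM, and 10% and 6.51% with the block. With library totals 20.6% were lower. Polr2a, the large subunit of RNA polymerase II, had 243 to 491 CPM in ERY-IV and 57.8 to 186 CPM in ERY-V and passed with library totals only (adjusted p = 0.0207; 0.556 with TMM).

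Glul, glutamine synthetase, which joins ammonium to glutamate, was measured at 330.2, 320.4, 363 and 274 CPM in ERY-IV and 328, 305, 290.4 and 368 CPM in ERY-V, and the groups overlapped. Its share of the library total was level (log2 fold change 0.0037 ± 0.25, adjusted p = 0.991), and relative to other genes it was higher (TMM 1.53 ± 0.35, adjusted p = 0.0197), a call that ended without any 1 of ERY-IV replicates 1, 2 or 4 or ERY-V replicates 4 or 6 (adjusted p up to 0.0994). Of the glutamine and glutamate list 3 of 18 tested were higher with TMM, and 1 higher and 4 lower with library totals. Over all genes 5.04% were higher with TMM, and 0.615% higher and 20.6% lower with library totals. The list's TMM count was 1 without ERY-IV replicates 1 or 2 or ERY-V replicates 4 or 6.

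RNAs of the nucleus had counts in every ERY-V library. Xist, the RNA of the inactive X chromosome, was measured at 534, 716, 226 and 223 CPM in ERY-IV and 87.1, 272, 70.4 and 124 CPM in ERY-V. ERY-V replicate 5 lay above ERY-IV replicates 3 and 4, so the groups overlapped. Malat1, an abundant nuclear RNA, was measured at 18049.8, 20793, 18856 and 11543 CPM in ERY-IV and 3732, 11849, 5025 and 4802 CPM in ERY-V, and Neat1, the scaffold of paraspeckles, at 108, 177, 70.3 and 48.7 CPM in ERY-IV and 33.5, 119, 20.6 and 25.1 CPM in ERY-V. None of the 3 was called with TMM (adjusted p = 0.746, 0.916 and 0.716), and with library totals Xist and Malat1 were lower (log2 fold change -1.62 and -1.45, adjusted p = 0.0404 and 0.0193), near the median of all genes. For Neat1 the TMM sign (0.29) turned with library totals (-1.02, adjusted p = 0.186), and with the block and library totals it was called lower (-1.25, adjusted p = 0.0067). ERY-V replicate 5, which also held the most neutrophil marker RNA, had the highest Xist, Malat1 and Neat1 of the 4 ERY-V libraries. Whether nucleated cells of the gate or other cells gave these reads was not tested.

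Other lists of the nucleus and the cell body held few calls with TMM and more under the other settings, where all genes had more as well. Over all genes 5.04% were higher and 1.54% lower with TMM, 10% and 6.51% with the block, and 0.615% and 20.6% with library totals. Of 42 tested chromatin genes 2 were higher and 3 lower with TMM, 3 and 16 with the position block, and 0 and 22 with library totals. The lower ones were Cbx3, a heterochromatin protein, H2afx, the histone variant of DNA damage, and Ncaph, a condensin subunit (-1.93 and -3.22, -1.4 and -2.87, and -1.72 and -3.06, with TMM and with library totals). Of 64 tested genes of the nuclear pore, lamina and transport 2 were higher and 1 lower with TMM, and 2 and 14 with the block. Of 51 tested splicing genes edgeR called 0 with TMM and DESeq2 0 higher and 2 lower, while 8 were lower with the block and 24 with library totals. In the cytoskeleton list linked to nuclear loss Myl6 and Myl12b, light chains of myosin, were higher, and Tubb5, a tubulin, and Stmn1, which destabilizes microtubules, were lower (1.97 and 0.54, 1.79 and 0.43, -1.71 and -3.05, and -1.88 and -3.13). Of 70 tested nuclear genes of the respiratory chain 1 was higher with TMM, 13 with the block and 0 with library totals, where 15 were lower. The antioxidant list had 3 of 25 higher with TMM and 8 with the block. These were Cat, Gpx1, a glutathione peroxidase, and Gclm of glutathione synthesis (1.71 and 0.18, and 1.69 and 0.15, for the last pair). Leaving out 1 library moved these TMM counts. Higher chromatin genes were 0 without ERY-IV replicates 1, 2 or 4 or ERY-V replicates 4 or 6, and 1 without ERY-IV replicate 3, and lower ones 0 without ERY-IV replicate 4, 1 without ERY-IV replicate 1 or ERY-V replicates 4 or 6, 7 without ERY-V replicate 5, and 8 without ERY-IV replicate 3. Higher nuclear pore genes were 0 without ERY-IV replicates 1, 2 or 4, and 1 without ERY-IV replicate 3 or ERY-V replicates 4 or 6, and lower ones 0 without ERY-IV replicates 1, 2 or 4 or ERY-V replicates 4 or 6, 3 without ERY-IV replicate 3, 5 without ERY-V replicate 7, and 8 without ERY-V replicate 5. Lower splicing genes were 4 without ERY-V replicate 5. In the cytoskeleton list the higher genes were 0 without ERY-IV replicate 2, and 1 without ERY-IV replicates 1, 3 or 4 or ERY-V replicates 4 or 6, and the lower ones 0 without ERY-IV replicates 1, 2 or 4 or ERY-V replicates 4 or 6. In the respiratory chain the higher genes were 0 without ERY-IV replicates 1, 2 or 4 or ERY-V replicates 4, 6 or 7, and 6 without ERY-V replicate 5, and the lower ones 1 without ERY-V replicate 7. Antioxidant genes called higher were 1 without ERY-IV replicates 1, 2 or 4 or ERY-V replicates 4 or 6, and 6 without ERY-V replicate 5.

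**Figure D3:**
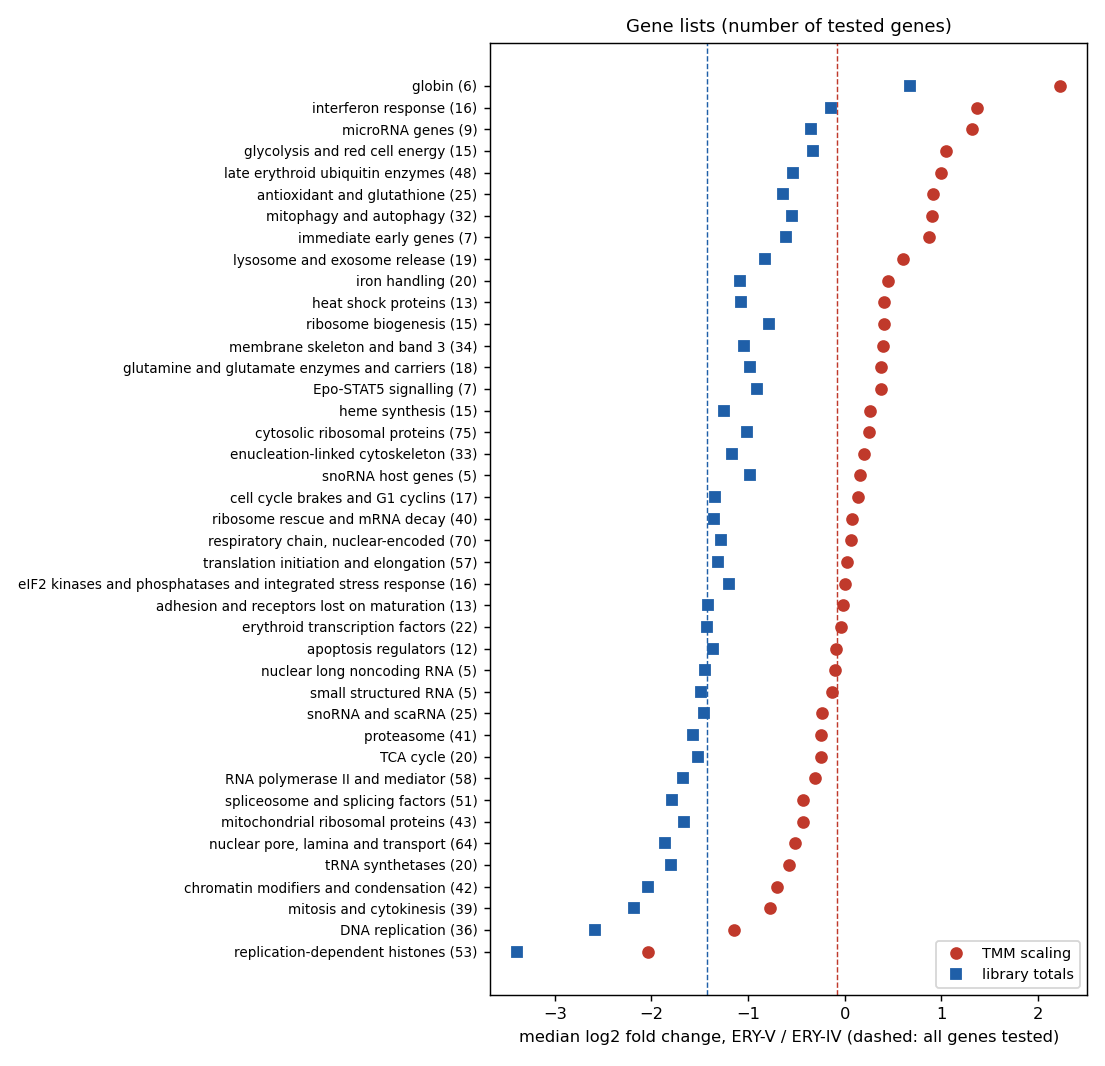
Median log2 fold change, ERY-V over ERY-IV, of each gene list with at least 5 tested genes (their number in brackets), with TMM scaling (red circles) and with library totals (blue squares), and dashed lines at the medians of all genes tested. Globin lies at the top (2.23 with TMM and 0.68 with library totals) and the replication-dependent histones at the bottom (-2.04 with TMM and -3.39 with library totals) on both scales.

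The same genes were read in WT libraries, which share none with the comparison above. They were WT ERY-V-VI (3 libraries, source label Retic/RBC) against WT ERY-III-VI (3 libraries, source label PolyE/OrthoE). WT names the controls of a knockout called GS-KO in the labels. Y-linked RNA was 116 to 189 summed CPM in them, against at most 0.503 CPM in the 8 libraries above. Counts of Hbb-b1 were 1.13 to 1.23 times those of Hba-a1, against 3.40 to 6.05 times there. Globin genes took 4.71 to 4.77% of the counts in WT ERY-III-VI and 19.6 to 19.8% in WT ERY-V-VI. The 3 libraries of each gate were far more alike (chi-square per degree of freedom 2.26 to 3.78 and 5.74 to 6.26) than those of ERY-IV or ERY-V, nothing in the labels says that they came from separate animals, and p-values from them measure that spread only. All 37 genes higher on both scales here had higher CPM in every WT ERY-V-VI library than in any WT ERY-III-VI library (5.83% of genes tested there did), and all 95 lower ones were lower there (73.2% of genes did). In CPM Bpgm had means of 1337 ± 25 (SD, n = 3) and 11157 ± 217 (SD, n = 3) in the earlier and the later WT gate, Bnip3l 666 ± 20.6 and 3480.2 ± 25.5, and Hist2h4 879 ± 21.7 and 209 ± 28.4. With TMM 1475 of 8025 genes (18.4%) were called higher and 1032 (12.9%) lower in WT ERY-V-VI, and without 1 of the WT ERY-III-VI libraries 611 to 620 were lower. Of genes tested in both, 285 were higher in both, which is 95% of those higher here and 21.8% of those higher in WT, and 85 were lower in both, 89.5% and 9.01%. The count called higher here and lower in WT was 0. With library totals 404 (5.03%) were higher and 5434 (67.7%) lower, and the median of all genes moved by -1.15.

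The neighbouring gates give the levels before and after. From ERY-III to ERY-IV 749 of 7238 genes (10.3%) were higher and 238 (3.29%) lower with TMM, and from ERY-V to ERY-VI 52 of 3148 (1.65%) were higher and 13 (0.413%) lower. These steps share ERY-IV or ERY-V libraries with this one, and their values are set side by side. The mean CPM of Bpgm was 1265, 2447, 7149 and 11262 in ERY-III, ERY-IV, ERY-V and ERY-VI, and that of Hist2h4 1236, 436, 29.6 and 3.46. Of histone genes 41 of 54 tested were lower already from ERY-III to ERY-IV. A test of the difference between both steps called 0 genes above and 0 below 0 of 7523 with edgeR (450 at an unadjusted p below 0.05), and DESeq2 called 2 (0.0266%) above and 15 (0.199%) below.

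**Figure D4:**
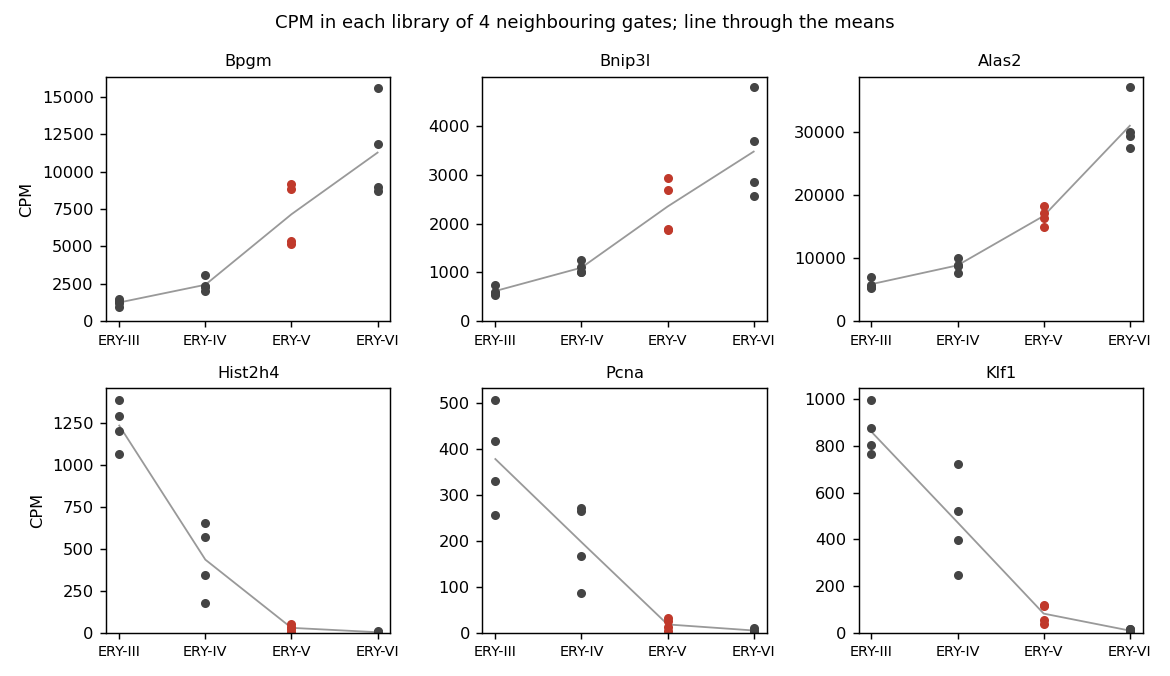
CPM of 6 genes in each library of 4 neighbouring gates (ERY-V is replicates 4 to 7, in red), with a line through the means. Bpgm, Bnip3l and Alas2 have higher means in each later gate, and Hist2h4, Pcna and Klf1 have lower ones.

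ERY-V replicates 1 to 3 were not part of the comparison. They carried Y-linked RNA (96.9 to 113 summed CPM), which was at most 0.503 CPM in the 8 libraries used, and their counts differed among themselves by a chi-square of 8.35 to 8.58 per degree of freedom. Counts of Hbb-b1 were 1.22 to 1.26 times those of Hba-a1 in replicates 1 to 3, against 3.40 to 6.05 times in the 8 libraries used. Globin genes took 17.1 to 17.2% of the counts there, against 38.1 to 58.9% in ERY-V replicates 4 to 7. In replicates 1 to 3 Bpgm was 11729.6 CPM on average and Hist2h4 55.6 CPM. Their summed neutrophil markers were 2759 to 2774 CPM and their macrophage markers 480 to 559 CPM, against 3436 and 429 CPM in replicate 5. With all 7 ERY-V libraries 6.49% of genes tested were higher and 2.33% lower with TMM, and 35 of the 37 genes higher on both scales and 72 of the 95 lower ones were called in the same direction. That fit holds the libraries whose calls chose these sets, so it is no separate support.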

How the data were processed

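Counts per gene symbol for 38 stage and 30 knockout libraries were used as the authors deposited them, as raw read counts; 24059 symbols were listed in both. The submitters' processing notes name STAR 2.5.2b, HTSeq and mm10; a strand setting and the annotation were not found there, so a gene and its antisense partner may share reads. RefSeq symbols covered 22548 of them and synonyms 1372 more.

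Genes were kept by filterByExpr (minimum count 10, total 15) and tested in edgeR 4.0.16 (R 4.3.3) with TMM, the quasi-likelihood F test and Benjamini-Hochberg adjustment at 0.05; SE is |log2 fold change| divided by √F. Library sizes were totals over all genes. CPM values are relative to those totals, per 1000000. Alternatives were DESeq2 1.42.0, RLE factors, library totals, abundant genes left out, other filters, limma-voom (limma 3.58.1), a position block, other library sets and leaving out each library.

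Positions were taken as a pairing since deviations from the group means correlated in all 4 (0.25, 0.49, 0.47 and 0.29, on log2 of CPM plus 2). The labels do not state it, and the match was partial: 6 of the 8 libraries correlated best with their own position, and ERY-IV replicate 1 correlated more with ERY-V replicate 5 (0.36), ERY-IV replicate 4 slightly more with ERY-V replicate 6 (0.30). No molecular tags are described, so counting error does not cover PCR copies. Genes named are 27 landmarks (26 passed the filter), the 12 highest and 12 lowest fold changes among calls that passed 2-fold, averaged 5 CPM or more and did not overlap, up to 4 called members per gene list and the 10 most abundant genes; not all are described. Some items are not reported here. The members and lists were chosen with earlier results of these data known.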

Additional observations from a re-analysis of the deposited data

Results flagged for a closer look

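In 214 sets of 4 libraries of 1 gate, 17 had a highest or lowest library whose gap to its neighbour was over Dixon's 95% critical value; chance gives about 1 in 20. In ERY-V the library that stood apart was replicate 5 each time. It was highest for the summed neutrophil markers (3436 CPM, next 117 CPM), B cell markers (38 CPM, next 1.15 CPM), T and NK markers (10.9 CPM, next 0.229 CPM) and mast, basophil and eosinophil markers (54.6 CPM, next 0 CPM). It was also highest for Malat1 (11849 CPM, next 5025 CPM), Neat1 (119 CPM, next 33.5 CPM), Trim58 (398 CPM, next 213 CPM), Asf1b (12.1 CPM, next 5.73 CPM), Stmn1 (13.2 CPM, next 2.51 CPM) and Hist1h3h (2.61 CPM, next 0.229 CPM), and lowest for Mff (217 CPM, next 279.6 CPM).

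In ERY-IV replicate 3 was highest for Rsad2 (3421 CPM, next 2657 CPM) and Xpo7 (10116 CPM, next 6711 CPM), replicate 2 for neutrophil markers (185 CPM, next 17.6 CPM), and replicate 1 for Slc25a37 (5442 CPM, next 4969.9 CPM), mast, basophil and eosinophil markers (9.08 CPM, next 1.17 CPM) and Y-linked genes (0.168 CPM, next 0 CPM). The part of these RNAs in the results was not tested; Asf1b, Stmn1 and Mff kept their calls without ERY-V replicate 5.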

How the results depend on the processing

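The counts of genes higher and lower in ERY-V, 311 and 95, were 583 and 242 with DESeq2, 497 and 231 with no low-count filter, 38 and 1275 with library totals, 434 and 165 with limma-voom, 454 and 163 with all 7 ERY-V libraries and 428 and 929 with all stage groups in 1 fit. With the replicate block by position they were 618 and 402, and with the block and library totals, chosen after seeing the data, 65 and 3207. Leaving out 1 library gave 114 to 481 higher and 29 to 248 lower; the fewest came without ERY-IV replicate 1 (114 and 29) and the most without ERY-V replicate 5 (481 and 248), so a count of calls depends on single libraries. In the WT gates library totals gave 404 higher and 5434 lower, and leaving out 1 library 1168 to 1660 higher and 611 to 1334 lower. The difference between steps had 2 above and 15 below 0 with DESeq2, 1 below with library totals, 4 above and 4 below with the replicate block, and 0 to 1 above and 0 to 5 below when 1 library was left out.

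Samples of equal number in the WT gates did not deviate together (correlations -0.011, -0.0031 and 0.013), and a replicate block by number gave 1318 higher and 918 lower there.

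Of the named genes 9 gained a call under the replicate block by position with TMM and 84 kept their side. Of 1756 values of named genes under alternatives 1454 kept direction and side of the threshold, 205 lost the call, 62 gained one and 35 turned sign. These are the genes named in the text with values; over all genes 86 called higher with TMM turned with library totals. There the sign turned, among the named genes, for Neat1 (-1.02), Slc4a1 (-0.34), Trim58 (-0.88), Xpo7 (-0.61), Foxo3 (-0.65), Fth1 (-0.54), Tspo2 (-0.47), Hbq1b (-0.034), Tpm1 (-0.015), Lmo2 (-0.36) and E2f2 (-0.10), and with the block and library totals for Neat1 (-1.25), Slc4a1 (-0.35), Trim58 (-0.93), Xpo7 (-0.64), Foxo3 (-0.69), Fth1 (-0.61), Tspo2 (-0.49), Hbq1b (-0.047), Tpm1 (-0.0076), Lmo2 (-0.35) and E2f2 (-0.13). Tfrc turned to 0.027, 0.027, 0.010, 0.053, 0.041, 0.077, 0.16 and 0.14 under DESeq2, RLE size factors, the 5 CPM filter, limma-voom with quality weights, without ERY-IV replicate 3, without ERY-IV replicate 4, without ERY-V replicate 4 and without ERY-V replicate 5. Malat1 turned to 0.0030 with limma-voom, 0.034 without ERY-IV replicate 3 and 0.018 without ERY-V replicate 7, and Neat1 to -0.14 with all groups in 1 fit and -0.022 without ERY-V replicate 5. Over the fits without 1 library Malat1 ran from -0.27 to 0.034, Neat1 from -0.022 to 0.48 and Tfrc from -0.25 to 0.16. Apart from scaling, where the construction moves every gene, the cause was not tested. Depth limits genes of few counts: 17302 genes had any count in these libraries and 6175 passed the filter.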
